A study of Drosophila melanogaster with 32 samples.

Results

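The genes described here are CG6765, CG34251, CG2772, RalGPS and CR44101, each of which stood far higher in females of some evolved laboratory populations of Drosophila melanogaster than in females of others. They were chosen by a measured value: in each mating regime the highest of the 4 female population means minus the lowest had to exceed 3 log2 units in at least 1 regime. Each gene was measured by 1 probe set, which is a group of short array probes summarised to 1 value. Of 18769 probe sets, 15 (0.0799%) passed that threshold, of which 10 were assigned to a single gene, and the 5 described here are among those 10. Everything said about the differences between populations is therefore a description of the values that chose the genes and carries no test.

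Whole adult females came from 8 populations founded from LHM, an outbred laboratory stock. Of these, Mono1 to Mono4 had evolved under enforced monogamy, with a single mating in each generation, and Prom1 to Prom4 under the stock's usual promiscuous mating, for 46 generations. Each female population was crossed both within itself and with the males of its same-numbered counterpart in the opposite regime, and females were frozen 6 h after mating. The 16 crosses had 2 arrays each, 1 per batch, so every female population was seen on 4 arrays, and the 4 groups (Mono or Prom females with Mono or Prom males) held 8 arrays each. All groups were mated, and no unmated females and no LHM females were analysed here, so it is not known from these arrays which level was the starting one.

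Transcript levels in a whole female sum over ovary, fat body, gut, nervous system and the reproductive tract, and mating is known to change many of them within hours through seminal fluid received from the male. The 5 genes are of unlike kinds. CG6765 encodes a predicted BTB domain protein, a class that holds many transcriptional regulators, and CG2772 a predicted lipase, an enzyme that splits lipid esters. RalGPS is an exchange factor that loads GTP onto the small GTPase Ral, which acts with the exocyst in vesicle traffic. CR44101 is listed as the long non-coding RNA lncRNA:dntRL in the RefSeq gene table, to which it was matched by its old locus tag. CG34251 is listed as protein coding, and no role is given for it here. CG6765 and CG34251 lie on chromosome arm 3L, CG2772 on 2L, and RalGPS and CR44101 on 2R.

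Markers of female tissues were high and markers of male tissues mostly low. Mean log2 values of 8 ovary, yolk and eggshell markers lay between 10.49 (Vm32E) and 14.73 (Yp1). Those of 7 testis markers lay between 2.72 and 4.89, and 10 male accessory gland markers had a median of 3.15 with a highest value of 7.06 for Acp95EF. The 3 gut markers lay between 11.79 and 13.75, and the fat body genes Fbp1 and Lsp2 were at 4.95 and 12.77. Summed over each list (log2 of the sum), the fat body genes differed most between populations, but their sum was nearly all Lsp2. It ran from 12.14 in Mono4 and 12.19 in Prom2 to 13.31 in Prom1 and 13.34 in Mono1. Sums ran from 16.55 to 16.66 for the female markers and 14.25 to 14.62 for gut. For testis they ran from 6.68 to 6.77 and for accessory gland from 7.72 to 7.90. As Lsp2 is a single transcript, its sum does not measure the amount of fat body, and its part in the results was not tested. Arrays of the same cross correlated at 0.996 to 0.998 and other pairs at 0.992 to 0.998, and the batches differed in RNA quality, the difference between 3' and 5' signal of actin being 1.00 log2 units larger in batch 2. No probe set had a background level of its own in the table, so a low value was not called absent. As whole flies were measured, fewer cells of a type and less RNA per cell cannot be told apart, and neither can a lower transcript level and a sequence difference beneath the probes.

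CG6765 came closest to an on-off pattern. In Mono1 females its log2 value was 3.40 and 3.20 with Mono1 males and 3.48 and 3.61 with Prom1 males. The mean there was 3.42 ± 0.17 (SD, n = 4 arrays). In the other 7 populations the lowest single array was at 6.04, so no array of Mono1 came near them. The means were 8.81 ± 0.10 in Mono2, 8.36 ± 0.23 in Mono3 and 8.22 ± 0.29 in Mono4. Mono2 stood 5.39 log2 units above Mono1, a 41.9-fold difference in signal and the widest range of any probe set in the table. A probe set with no gene named came close behind at 5.38. Its range among promiscuous populations was 4.03, against 1.83 for CG6765.

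Among promiscuous females CG6765 took 2 levels. Prom1 (8.13 ± 0.25) and Prom2 (8.47 ± 0.15) overlapped with Mono3 and Mono4, whereas Prom3 (6.64 ± 0.60) and Prom4 (7.03 ± 0.40) lay below them with no overlap of arrays. The gap between Prom1 and Prom4, which stood next to each other in the order of 8, was 1.09, and that between Prom3 and Mono1 was 3.22. Prom3 was also the most variable population for this gene, with arrays at 6.74, 6.36, 7.44 and 6.04. Prom3 and Prom4 overlapped with each other, so their order was not set apart by the spread between arrays.

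CG34251 showed the reverse picture, with a low value in most populations and a high one in a few. Prom4 females had log2 values of 7.92, 6.89, 8.50 and 7.06, with a mean of 7.60 ± 0.76 (SD, n = 4 arrays). The other promiscuous populations had means of 3.80 ± 0.11 (Prom1), 3.85 ± 0.23 (Prom2) and 4.14 ± 0.35 (Prom3), so that Prom4 stood 3.80 log2 units, or 13.9-fold, above Prom1. Mono1 was the other high population, with arrays at 5.25, 7.17, 6.06 and 6.65 and a mean of 6.28 ± 0.82. The arrays of Prom4 and Mono1 overlapped, and both were clear of the 6 remaining populations, whose means ran from 3.80 to 4.53. Those 6 formed an unbroken series in which each population overlapped with the next.

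CG2772, the predicted lipase, was highest in Prom3. Its log2 values there were 6.94, 7.38, 7.01 and 6.58 (mean 6.98 ± 0.33, SD, n = 4 arrays), against 3.91, 3.88, 4.05 and 4.00 in Prom1 (mean 3.96 ± 0.08). This is a range of 3.02 log2 units or 8.09-fold within the promiscuous regime, just past the threshold. Prom4 came second at 5.84 ± 0.66, with arrays from 4.92 to 6.46, and was lower than Prom3 with no overlap. The 4 monogamous populations spanned only 0.82, from 4.43 ± 0.20 in Mono2 to 5.25 ± 0.34 in Mono4, and Prom2 stood at 4.31 ± 0.27. From Prom4 down to Prom2 each population overlapped with the next, so CG2772 was graded rather than split into an on and an off state.

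RalGPS varied in both regimes. Mono2 (9.53 ± 0.26, SD, n = 4 arrays) and Mono3 (9.35 ± 0.20) were high, while Mono4 (7.13 ± 0.67) and Mono1 (6.46 ± 0.47) were low, a range of 3.07 log2 units or 8.41-fold. Within the promiscuous regime the range was 2.83, from 8.86 ± 0.28 in Prom3 and 8.34 ± 0.27 in Prom1 through 7.32 ± 0.49 in Prom2 to 6.03 ± 0.11 in Prom4. Mono1 arrays read 5.80, 6.46, 6.69 and 6.89, and Prom4 arrays 5.91, 5.99, 6.10 and 6.14, and these arrays overlapped. No gap between neighbours in the order of the 8 means was over 1.02. That widest gap, between Prom1 and Prom2, had no overlap of arrays, and neither had the gap between Prom3 and Prom1. The lowest mean, in Prom4, was at percentile 53.9 of all probe sets, so no off state was described for RalGPS.

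CR44101, the non-coding RNA, was lowest in Mono3. The arrays of Mono3 read 3.85, 5.55, 3.98 and 4.41, with a mean of 4.45 ± 0.77 (SD, n = 4 arrays), against 7.45 ± 0.20 in Mono1, a range of 3.01 log2 units or 8.04-fold. Mono4 (6.20 ± 0.18) and Mono2 (6.06 ± 0.18) overlapped with each other and lay between, clear of Mono3 below and of Prom4 above. The promiscuous populations overlapped each with the next, with means from 6.88 ± 0.21 in Prom4 to 7.51 ± 0.09 in Prom2. Mono3 was also the population with the largest difference between 3' and 5' signal in the control transcripts, with actin at 2.61 log2 units, GAPDH at 1.41 and eIF-4a at 2.77. The next highest populations were at 2.50 (actin), 1.38 (GAPDH) and 2.62 (eIF-4a). The part of RNA quality in the CR44101 value was not tested. Its highest Mono3 array, at 5.55, came from batch 2.

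**Figure D1:**
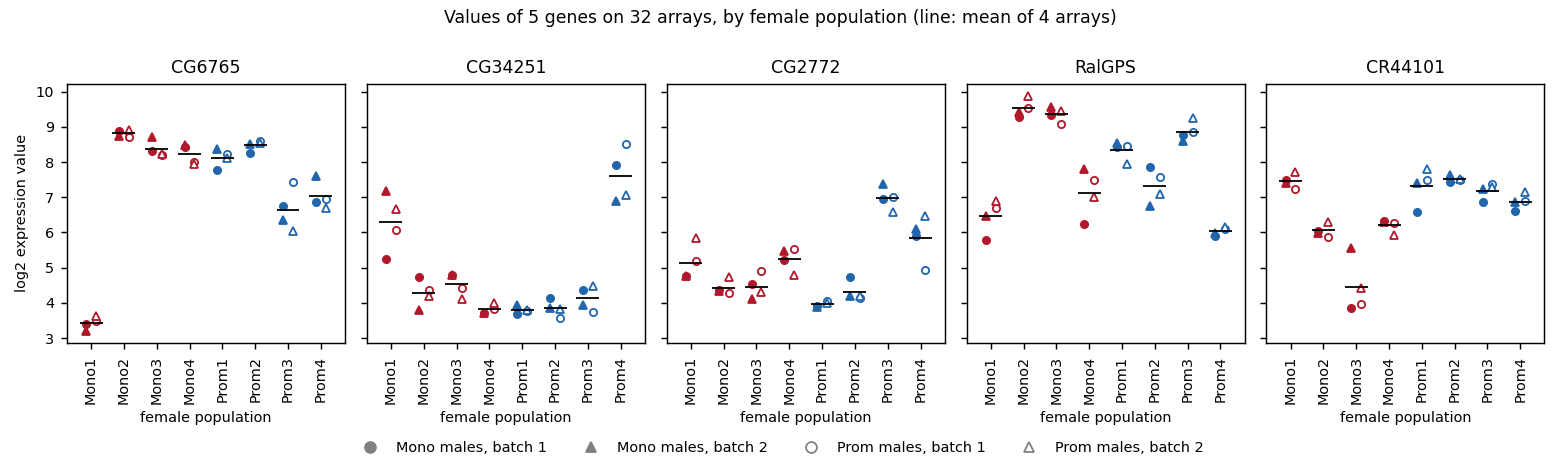
Log2 expression value of each gene on each of 32 arrays (vertical axis) by female population (horizontal axis), with monogamous populations in red and promiscuous ones in blue, filled symbols for Mono males and open symbols for Prom males, circles for batch 1 and triangles for batch 2, and a line at the mean of 4 arrays. CG6765 in Mono1 lies at 3.42 with every other population at 6.64 or above, CG34251 is high in Prom4 and Mono1, and the lowest RalGPS mean is 6.03.

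The range of the 15 probe sets was far outside that of most of the table. The median range over all 18769 probe sets was 0.18 log2 units, and 99 percent of them had a range under 1.36. Just inside the threshold lay CR44101 at 3.01 and CG2772 at 3.02, and just outside it lay a probe set shared by Acsx1R and Acsx1L at 2.99 and CG32751 at 2.98. The other single-gene probe sets past it were those of Cyp12d1-d (4.24), a cytochrome P450, Send2 (3.58), a protease of the spermathecae, DptB (3.53), an antibacterial diptericin, Cyp4d21 (3.25) and Spn38F (3.11), a serpin. The remaining 5 probe sets past the threshold had no single gene in the annotation.

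**Figure D2:**
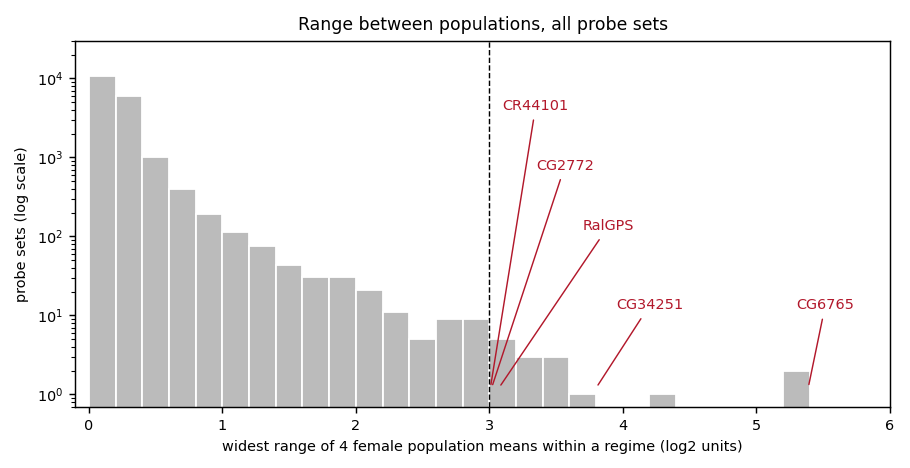
Number of probe sets (vertical axis, log scale) by the wider of the 2 within-regime ranges of female population means (horizontal axis, log2 units), with a dashed line at the threshold of 3. The described genes are marked at 3.01 (CR44101), 3.02 (CG2772), 3.07 (RalGPS), 3.80 (CG34251) and 5.39 (CG6765), and the median of all probe sets is 0.18.

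The genes also varied more than most between arrays of the same population, a measure that the choice of genes did not use. Pooled over populations, the SD between arrays was 0.31 for CG6765, 0.37 for CR44101, 0.38 for CG2772, 0.38 for RalGPS and 0.46 for CG34251, against a median of 0.12 over all probe sets. These values stood between percentiles 98.2 and 99.4 of all probe sets. The spread was uneven: for CG34251 it ran from 0.11 in Prom1 to 0.82 in Mono1, and for CG2772 from 0.08 in Prom1 to 0.66 in Prom4. Populations with the lowest level of CG34251 and CG2772 were thus those with the least spread, while CG6765 had its least spread, 0.10, in Mono2, where it was highest. The ranges that chose the genes were 7.92 to 17.2 times the SD between arrays, a ratio that the choice itself makes large.

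Some populations stood out for more than 1 gene, but at least 1 had to. Each gene described has a highest and a lowest population, and these places outnumber the 8 populations. The recurrences are read from the means that chose the genes, and whether they exceed what must occur was not tested. Over the 8 population means, Pearson's r between pairs of these genes ran from -0.64 (CG34251 and RalGPS) to 0.51 (CG6765 and RalGPS). These r values describe 8 points that come from the same arrays. Mono1 had the lowest CG6765, the second lowest RalGPS and the second highest CG34251, whereas CR44101 was near its highest there. Prom4 had the highest CG34251 and the lowest RalGPS, Mono2 the highest CG6765 and RalGPS, and Prom1 the lowest CG34251 and CG2772. Prom3, where CG2772 was highest, and Mono3, where CR44101 was lowest, were at the extreme of no other gene described.

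Neighbouring genes on the chromosome arm passed a test between populations at a share close to that of all probe sets. For each gene, the nearest 2 genes on each side with a single-gene probe set were taken from the order in the RefSeq table (assembly Release 6 plus ISO1 MT), 20 genes in all. Differences between populations within regimes were tested for them by a moderated F test (limma, adjusted p over all probe sets), and 2 of the 20 passed, against 13.7% of all probe sets. Their median range was 0.16. Pus7, a pseudouridine synthase, and CG6683 overlap CG6765 in the annotation, and had ranges of 0.15 and 0.17 (adjusted p = 0.529 and 0.726), and Pus7 stood at 7.52 in Mono1 and 7.67 in Mono2, with the order of its small differences close to that of CG6765 (rho = 0.88).

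GstO3, an omega-class glutathione transferase next to CG6683, had the widest range of the 20. It differed between populations by up to 1.96 log2 units (limma moderated F test, adjusted p = 5.72e-09). Its mean was 11.03 in Prom3, 9.90 in Mono1 and 9.64 in Prom4, and 8.30 in Mono2, so it was high where CG6765 was low (Spearman's rho = -0.88 and Pearson's r = -0.60 over 8 populations, with no p). The other neighbour that passed was Crtc, a coactivator of the factor CREB, 2 genes from CG34251. Its range was only 0.29 (limma moderated F test, adjusted p = 0.0114). Its mean was lowest in Mono1, at 8.64, and was 8.76 in Prom4, while the 6 remaining means ran from 8.74 to 8.94. None of the 12 neighbours of CG2772, RalGPS and CR44101 passed. They included the sorting nexin gene Snx1 beside CG2772 and resilin, the elastic cuticle protein, beside RalGPS, with ranges of 0.13 and 0.25. Also among them were p120ctn, a catenin, and the cohesin loader Nipped-B, each 2 genes from CR44101, with ranges of 0.25 and 0.16. CG6052, Nipped-B, CG15615, Vkor, CG8840 and CG31952 had low values, their means running from 2.66 to 4.65 over all populations, where a difference may not be detectable.

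**Figure D3:**
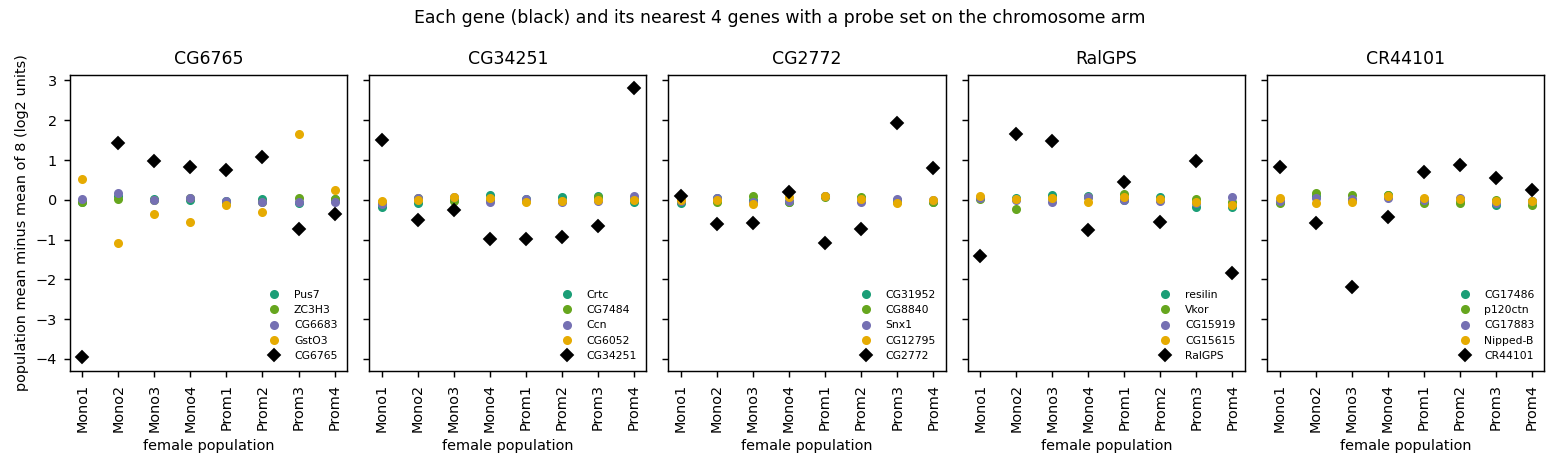
Population mean minus the mean of all 8 populations (vertical axis, log2 units) by female population (horizontal axis) for each described gene (black diamonds) and its nearest 4 genes with a probe set on the same chromosome arm (coloured circles). GstO3, with a range of 1.96, moves opposite to CG6765, and the other 19 neighbours have ranges of at most 0.30.

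The genes whose population means were most like each described gene were looked up among 379 single-gene probe sets that spanned at least 1 log2 unit. Since the closest of so many were taken, these are descriptions over 8 populations. For CG6765 the closest was CG32834 (r = 0.94, rho = 0.76), followed by rb, a subunit of the AP-3 vesicle coat (r = 0.87, rho = 0.40), and the C-type lectin lectin-24A (r = 0.84, rho = 0.74). Most opposed were CG10562 (r = -0.89, rho = -0.64) and CG10560 (r = -0.88, rho = -0.79). All 5 relations were weaker without Mono1 and Prom3, with r of 0.77 for CG32834, 0.46 for rb, 0.54 for lectin-24A, -0.14 for CG10562 and -0.26 for CG10560.

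CG34251 was closest to Pepck2, a phosphoenolpyruvate carboxykinase (r = 0.95, rho = 0.76). Pepck2 stood at 9.02 in Prom4 and 8.67 in Mono1 against 6.61 to 7.27 elsewhere, and r fell to 0.14 without those 2 populations. CG1894 (r = 0.77, rho = 0.57) and Cph (r = 0.74, rho = 0.43) came next, while CG7567 (r = -0.81, rho = -0.55) and CG32834 (r = -0.74, rho = -0.74) were most opposed. Without Prom4 and Mono1, r was -0.02 for CG1894, -0.42 for Cph, 0.35 for CG7567 and -0.63 for CG32834, so the sign of the first 3 turned. For CG2772 the closest were CG4362 (r = 0.91, rho = 0.88), CG1440 (r = 0.87, rho = 0.83) and CG10182 (r = 0.84, rho = 0.90), which kept r of 0.75, 0.92 and 0.82 without Prom3 and Prom4. CG15571 (r = -0.76, rho = -0.60) and LBR, the lamin B receptor (r = -0.75, rho = -0.74), were most opposed to it, with r of -0.03 and -0.62 without the same 2 populations.

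RalGPS was most like shi, the dynamin that pinches off endocytic vesicles (r = 0.86, rho = 0.76), Drep1 (r = 0.81, rho = 0.71) and the cytochrome P450 Cyp4p1 (r = 0.77, rho = 0.76). The sorting nexin snz (r = -0.86, rho = -0.90) and CG32833 (r = -0.85, rho = -0.86) were most opposed. Drep1, Cyp4p1 and CG32833 lie on the same arm as RalGPS, but 807 to 1261 genes away in the RefSeq order. Without Prom4 and Mono2, r was 0.90 for shi and -0.89 for snz. CR44101 was closest to CG17470 (r = 0.96, rho = 0.83), which stood at 5.43 in Mono3 against 6.06 to 7.57 elsewhere, then to GstD2, a glutathione transferase (r = 0.88, rho = 0.86), and the digestive protease Jon65Ai (r = 0.87, rho = 0.40). Opposed to it were the tetraspanin Tsp39D (r = -0.92, rho = -0.90) and Cyp6g1 (r = -0.89, rho = -0.62), a P450 known for insecticide resistance, at 11.06 in Mono3 and 8.52 to 9.15 in the other populations. Cyp6g1 lies on the same arm as CR44101, 1119 genes away in the RefSeq order. Without Mono3 and Mono2, r was 0.89 for CG17470 and -0.64 for Cyp6g1.

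Genes related to these by function or name were described from fixed lists. Of 10 other measured genes of Ral signalling and the exocyst, 0 passed the moderated F test between populations within regimes (limma, adjusted p under 0.05), against 13.7% of all probe sets, and their widest range was 0.24. The lowest adjusted p among them was 0.0751, for Exo70, with a range of 0.22. Of 20 other genes of the acid lipase family, 3 passed: CG3635 (range 1.05 among promiscuous populations, adjusted p = 6.23e-05), mag, the gut lipase magro (0.73, adjusted p = 0.000462), and CG8093 (1.70, adjusted p = 0.00807). Among promiscuous populations CG8093 was lowest in Prom2 (5.22) and highest in Prom4 (6.92), but stood at 6.99 to 7.07 in Mono2, Mono3 and Mono4. The level of mag was 11.27 in Prom4 and 11.12 in Prom3, where CG2772 was highest, and also 11.23 in Mono3, where CG2772 was at 4.46. CG3635 was lowest in Prom3 (5.82). Of 9 other genes named CR with a number, 3 passed, namely CR43790 (range 1.04, adjusted p = 1.70e-06), CR17567 (0.52, adjusted p = 0.00153) and CR14798 (0.46, adjusted p = 0.00181). In none of these was Mono3 the lowest monogamous population. The median range was 0.14 in the Ral list, 0.20 in the lipase list and 0.25 in the CR list, beside 0.18 over all probe sets. In the comparisons of female and male regimes 0 genes of the 3 lists passed.

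Whether evolution under promiscuity or monogamy shifted these genes was asked by comparing the 4 promiscuous with the 4 monogamous population means. The standard errors of this comparison come from the spread of population means within regimes. The genes were chosen for a wide spread of that kind, so large standard errors follow in part from the choice. A gene that missed the threshold may still have shifted. CR44101 had the largest difference in size. It averaged 7.22 ± 0.27 in promiscuous and 6.04 ± 1.23 in monogamous populations (SD, n = 4 populations), a difference of +1.19 ± 0.52 (standard error; limma, unadjusted p = 0.0499, adjusted p = 0.712). All 4 promiscuous populations were above 3 of the monogamous ones, but Mono1, at 7.45, lay among them. Without Mono3 the difference was +0.65, and without Mono1 it was +1.66.

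The other differences were smaller than their standard errors. RalGPS was at -0.48 ± 0.82 (limma, adjusted p = 0.947), CG2772 at +0.45 ± 0.61 (adjusted p = 0.930), CG6765 at +0.37 ± 1.11 (adjusted p = 0.975) and CG34251 at +0.12 ± 0.88 (adjusted p = 0.990). The sign of each of these 4 turned when a single population was left out. For CG6765 the difference was -0.89 without Mono1, for CG34251 -0.80 without Prom4, -0.18 without Mono4 and -0.031 without Mono2, for CG2772 -0.12 without Prom3, and for RalGPS +0.055 without Prom4. Over all probe sets 0 (0%) passed with limma and 1312 had an unadjusted p under 0.05. For 0 of the 5 genes did the promiscuous means lie wholly to 1 side of the monogamous ones, against 4.08% of all probe sets. A wide range within a regime makes such a separation unlikely, so this count says nothing about the regimes.

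The intervals were wide, which the choice of genes makes likely. The 95% interval ran from -2.15 to 2.88 for CG6765, from -1.88 to 2.12 for CG34251, from -2.35 to 1.39 for RalGPS, from -0.92 to 1.83 for CG2772 and from 0.000368 to 2.37 for CR44101. A regime difference of several fold would be within each of them. Taken batch by batch, CR44101 differed by +1.21 and then +1.16. All 32 arrays were also fitted with a random block for population, which applies 1 shared correlation to all probe sets. There CR44101 passed with the same difference (limma, adjusted p = 0.0404), its standard error being 0.29 against 0.52 on population means. A shared correlation may understate that of genes chosen for a wide spread between populations. The p-value from it may therefore be too small for these genes. The other 4 genes did not pass in that fit.

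Differences by mate were small for all 5 genes. They were measured within each female population, as females with Prom males minus females with Mono males, which the choice of genes did not use. Since a Mono and a Prom female population of the same number met the same males, the 8 differences rest on 4 pairs of male populations. Over 8 female populations RalGPS was at +0.17 ± 0.09 (standard error; limma, adjusted p = 0.511, higher in 6 of 8), and its differences ran from -0.28 in Prom1 to 0.66 in Mono1. CR44101 was at +0.06 ± 0.08 (adjusted p = 0.790, higher in 5 of 8) and CG2772 at +0.02 ± 0.09 (adjusted p = 0.944, higher in 4 of 8). CG34251 was at -0.02 ± 0.09 (adjusted p = 0.954, higher in 4 of 8) and CG6765 at -0.06 ± 0.09 (adjusted p = 0.841, higher in 5 of 8). The number of probe sets that passed was 0 (0%) with limma, and 1977 had an unadjusted p under 0.05.

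The 95% intervals of the mate difference treat the 8 differences as independent and leave out that males were shared, so they may be too narrow. They ran from -0.25 to 0.14 for CG6765, from -0.21 to 0.17 for CG34251, from -0.17 to 0.22 for CG2772, from -0.02 to 0.37 for RalGPS and from -0.11 to 0.23 for CR44101. In Mono1 females CG6765 stayed low with either mate, at 3.30 with Mono1 males and 3.55 with Prom1 males. In Prom4 females CG34251 stayed high with either, at 7.41 with Mono4 and 7.78 with Prom4 males. In Mono3 females CR44101 was at 4.70 with Mono3 males and 4.19 with Prom3 males. These extreme levels belong to the values that chose the genes, and were present with both kinds of mate.

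**Figure D4:**
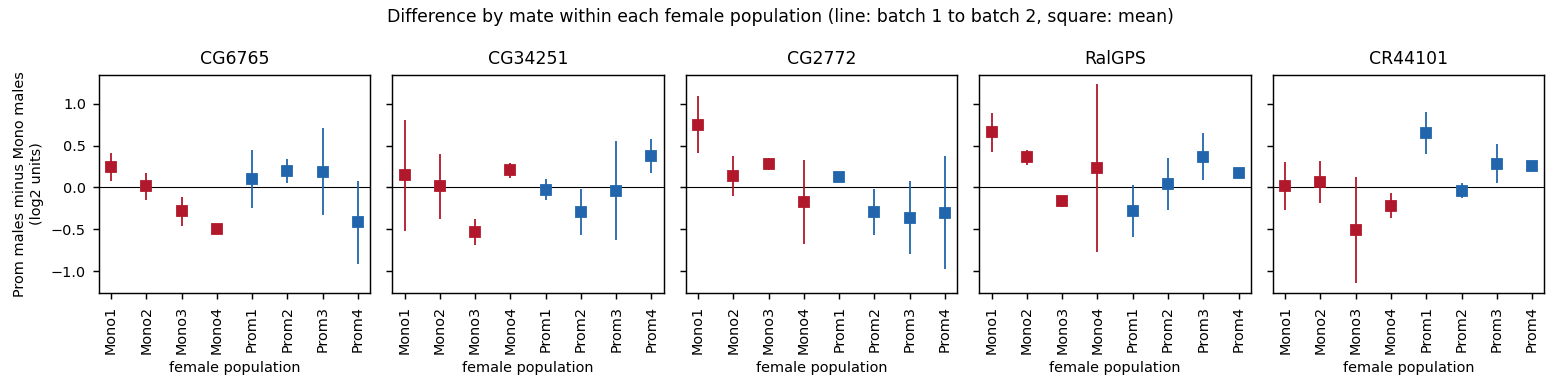
Difference in log2 value between females mated to Prom males and females mated to Mono males (vertical axis) in each female population (horizontal axis), as the mean of both batches (square) with a line joining the value in batch 1 to that in batch 2, red for Mono and blue for Prom females. Differences of both signs occur for every gene, and the widest mean difference is 0.75, for CG2772 in Mono1.

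The interaction asked whether the mate mattered differently in promiscuous and monogamous females. CG2772 was higher with Prom males in Mono females by 0.25 on average (higher in 3 of 4 populations) and stood at -0.21 in Prom females (higher in 1 of 4). The difference between these was -0.46 ± 0.18 (standard error; limma, unadjusted p = 0.0267, adjusted p = 0.664). CR44101 went the other way, at -0.16 in Mono and +0.29 in Prom females, an interaction of +0.45 ± 0.15 (limma, unadjusted p = 0.0147, adjusted p = 0.664). The CG2772 interaction was -0.29 without Mono1 (unadjusted p = 0.0634), the population with the difference of 0.75. Neither passed, and both kept their sign in each batch, at -0.58 and -0.33 for CG2772 and +0.53 and +0.36 for CR44101. Unadjusted p (limma) was 0.0289 and 0.361 for CG2772 and 0.00816 and 0.235 for CR44101, in batch 1 and batch 2. Both batches hold the same crosses of the same populations, so they are not separate replicates of the regimes. RalGPS (-0.19 ± 0.17), CG6765 (+0.15 ± 0.17) and CG34251 (+0.04 ± 0.17) had adjusted p of 0.813, 0.858 and 0.964 (limma). In batch 1 alone CG6765 was at +0.55 (limma, unadjusted p = 0.00292, adjusted p = 0.395) and RalGPS at -0.53 (limma, unadjusted p = 0.0707), and in batch 2 they were at -0.26 and +0.14. Over all probe sets 0 (0%) passed and 1367 had an unadjusted p under 0.05.

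None of the 5 genes passed for batch. Of all probe sets 19.8% differed between batches (limma, adjusted p under 0.05), against 0 of the 5 genes. CR44101 came closest, at +0.29 ± 0.10 in batch 2 (standard error; limma, adjusted p = 0.0546, higher in 11 of 16 crosses), and it passed without Mono4 (+0.36, adjusted p = 0.0322). Without Mono3 it was at +0.18 (limma, adjusted p = 0.0905), and leaving out any other population gave adjusted p of 0.0693 to 0.138. RalGPS was at +0.09 ± 0.13, CG2772 at +0.05 ± 0.13, CG34251 at -0.04 ± 0.17 and CG6765 at -0.01 ± 0.11 (limma, adjusted p from 0.684 to 0.952). Single crosses differed by much more, the largest gap between their 2 arrays being 1.92 for CG34251.

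**Figure D5:**
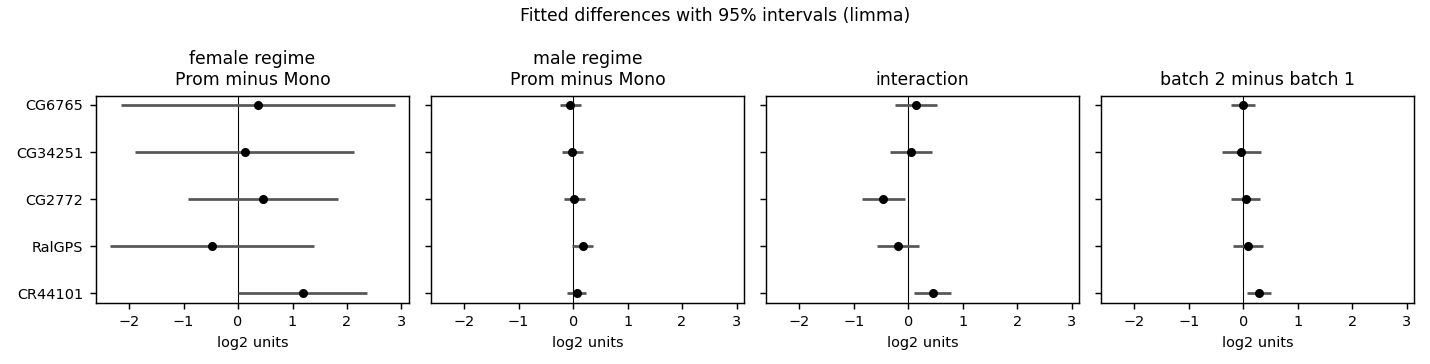
Fitted differences (points) with 95% intervals (lines) on the log2 scale (horizontal axis) for the 5 genes in 4 comparisons. The female regime intervals are the widest, up to -2.15 to 2.88 for CG6765, and 0 of the 5 genes passed in any of the 4 comparisons.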

How the data were processed

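Expression was measured on 32 Affymetrix arrays of whole mated females. The authors deposited 1 log2 value per probe set and array, made with RMA from the affy package per the submitters' processing notes, with versions not given in the sources used here. RMA corrects background, brings arrays to a shared distribution and summarises probes, so a shift of most transcripts would be removed. Array medians lay between 5.41 and 5.50. The precision of the regime comparison is limited by the 4 populations per regime, and that of a population's level by its 4 arrays. After 183 array controls were left out, 18769 probe sets were tested. Of these, 13646 had 1 gene in the platform annotation, 402 several and 4721 none named, and 13543 of the first were matched to RefSeq by gene identifier. A gene outside the 5 described was represented by its brightest probe set, except in the search for likeness and around the range threshold. There every probe set was considered, and a most alike or most opposed gene was taken at its probe set with the most extreme r.

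The differences between female regimes were fitted with limma 3.58.1 (R 4.3.3) on the 8 population means. Mate differences and the interaction were fitted on 16 cross means with female population as a block, and batch and populations within regimes on 32 arrays with 16 crosses and batch as terms. P-values were two-sided and adjusted by Benjamini-Hochberg across the whole table, with a threshold of 0.05. The fits were run on simulated data whose spread between populations was smaller than on these arrays. That does not show how they perform for genes with so wide a spread. Per the labels the 2 arrays of a cross are biological replicates, and the 4 populations are the replicates of a regime.

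The 5 genes and the gene lists (Ral signalling and exocyst, acid lipases, CR names, markers of ovary, testis, accessory gland, gut and fat body) were chosen with earlier results of these data known. Genes named besides the 5 are the nearest 2 on each side, the 3 most alike and the 2 most opposed, up to 4 of each list with the lowest p, and the probe sets around the threshold. Alternatives were single batches, cyclic loess, a filter at a mean of 5, random or number blocks, and leaving out populations. No sequences of the genes were used here.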

Additional observations from a re-analysis of the deposited data

Results flagged for a closer look

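A value among 4 was singled out when its gap to the nearest other took a share of the whole range above Dixon's 95% critical value, which chance gives in about 1 of 20 groups. Among 10 sets of 4 population means this held for CG6765, where Mono1 lay low (0.890 of the range), and for CG34251, where Prom4 lay high (0.910). Both genes were chosen for a wide range of these same means, so this adds nothing to it. Among 40 sets of the 4 arrays of a population it held for 2. One was CG2772 in Prom2, where the batch 1 array with Mono2 males read 4.72 against a median of 4.18 for the others (0.914). The other was RalGPS in Prom1, where the batch 2 array with Prom1 males read 7.94 against 8.45 (0.831).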

How the results depend on the processing

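All 5 genes stayed past 3 log2 units after cyclic loess, 4 of them with medians, in batch 1 or with mates of the opposite regime, and 3 in batch 2 or with own males. The range was 5.27 to 5.51 for CG6765, 3.14 to 4.48 for CG34251, 2.77 to 3.26 for CG2772, 2.91 to 3.31 for RalGPS and 2.57 to 3.44 for CR44101, and 26 probe sets passed in batch 2 and 24 with own males, against 15. The count for the female regime was 0 in 13 of 14 alternatives and 181 when all 32 arrays were fitted with a random population block. With the population number as a replicate block it was 0, and CR44101 had an adjusted p of 0.656 (limma). Deviations of same-numbered populations correlated at 0.02 to 0.19, and 3 of 4 matched their own number best. These correlations were not tested, and the numbers were not taken as pairs. Mate and interaction counts were 0 in all 12 alternatives each, the batch count lay between 2721 and 3441 against 3717, and the count for populations within regimes was 2595 and 2792 against 2572.

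Differences that missed the threshold turned sign in some alternatives without passing, and the cause was not tested. For the female regime, leaving out 1 population gave -0.80 to 0.64 for CG34251 (batch 2: -0.079), -0.89 to 0.90 for CG6765, -0.12 to 0.89 for CG2772 and -1.03 to 0.055 for RalGPS. For mates, batch 2 gave -0.038 for CR44101 and 0.0081 for CG34251, and batch 1 gave -0.042 for CG2772 and 0.12 for CG6765. Without 1 population these were -0.080 to 0.063 for CG34251, -0.062 to 0.092 for CG2772 and -0.12 to 0.016 for CG6765. For the interaction, batch 2 gave 0.14 for RalGPS and -0.26 for CG6765, batch 1 gave -0.18 for CG34251, and leaving out 1 population gave -0.12 to 0.14 for CG34251. For batch, leaving out 1 population gave -0.23 to 0.13 for CG34251, -0.072 to 0.13 for CG2772 and -0.051 to 0.11 for CG6765. CR44101 passed for batch with the filter (0.29, adjusted p = 0.0433). CG34251 and CG2772 have means of 4.78 and 5.05, so the filter at 5 dropped CG34251.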
